A study of Rattus norvegicus with 5 samples.

Results

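The liver makes fatty acids from surplus carbohydrate, and 10 genes of this route and its control were examined in the livers of 2 rat strains: Fasn, Acaca, Acacb, Acly, Acss2, Me1, Thrsp, Mlxipl, Pklr and Nr1h3. They were taken as a list of gene names, and a gene counted as measured where the platform annotation gave a probe set that single gene symbol. Of the 10, 7 were measured, among 7589 genes in all; Fasn, Acss2 and Mlxipl had no probe set of that name and were not analysed here. Each of the 7 had a single probe set.

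Liver came from male rats aged 4 months and fed standard chow; the labels do not give their feeding state when killed. The PD (polydactylous) strain is the progenitor. The congenic strain is PD.SHR4 in the sample labels and PD.SHR4a in the series text. It carries a segment of chromosome 4 taken from the spontaneously hypertensive rat, SHR, in an otherwise PD genome. Any gene of that segment may therefore differ from PD. RNA was taken from 8 rats per strain, the labelled cDNA was pooled by strain, and the pools were hybridised to Affymetrix Rat Exon 1.0 ST arrays, 3 for PD and 2 for PD.SHR4. The labels do not tie arrays of a strain to different rats, so p-values rest on differences among these arrays, possibly technical ones, rather than among rats. The series title names the question, the metabolic and transcript profile of rats that lack the fatty acid translocase Cd36. None of the 7 genes lies on chromosome 4 in the RefSeq annotation of assembly GRCr8.

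As background, citrate leaves the mitochondria and is split in the cytosol to acetyl-CoA, which acetyl-CoA carboxylase turns into malonyl-CoA; fatty acid synthase then builds palmitate from malonyl-CoA with reducing power from NADPH. In liver, insulin raises the transcription of these enzymes through SREBP-1c, glucose through the carbohydrate response element binding protein ChREBP, the product of Mlxipl, and oxysterols through the liver X receptor LXR-alpha, the product of Nr1h3, which also activates the SREBP-1c gene. Malonyl-CoA blocks the entry of fatty acids into mitochondria, so the same step that begins synthesis restrains oxidation.

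Promoter sequence was found for 6 of the 7 measured genes in the RefSeq table of GRCr8, and 4 are shown because they belong to 3 of the genes with the larger strain differences and to Thrsp, whose difference was small. Each line gives the 250 bases before the annotated start of the gene, 5′ to 3′ on the gene's own strand. Capitals mark motif matches found on either strand: in Acly (GRCr8 chr10:85963632-85963881, minus strand) and Thrsp (chr1:161138965-161139214, minus strand) the CCAAT box and the GC box CCGCCC, in Acacb (chr12:48138215-48138464, minus strand) the CCAAT box and the nuclear receptor hexamer AGGTCA, and in Pklr (chr2:176841014-176841263, plus strand) a carbohydrate response element, searched as CACGNG and its reverse complement 5 bases apart, and a palindrome of the hepatocyte factor HNF-1, searched as GTTA and its reverse complement 5 bases apart.
Acly: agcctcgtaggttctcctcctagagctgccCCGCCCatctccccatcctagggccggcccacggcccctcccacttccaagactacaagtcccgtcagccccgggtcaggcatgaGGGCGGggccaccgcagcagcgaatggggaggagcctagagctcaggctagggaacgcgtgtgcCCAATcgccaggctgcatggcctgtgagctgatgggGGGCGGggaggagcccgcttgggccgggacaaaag
Pklr: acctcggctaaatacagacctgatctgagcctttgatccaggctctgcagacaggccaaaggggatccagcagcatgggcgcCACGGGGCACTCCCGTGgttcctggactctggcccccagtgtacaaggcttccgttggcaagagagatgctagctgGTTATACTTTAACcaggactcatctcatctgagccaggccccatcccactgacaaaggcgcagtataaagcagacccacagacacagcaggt
Acacb: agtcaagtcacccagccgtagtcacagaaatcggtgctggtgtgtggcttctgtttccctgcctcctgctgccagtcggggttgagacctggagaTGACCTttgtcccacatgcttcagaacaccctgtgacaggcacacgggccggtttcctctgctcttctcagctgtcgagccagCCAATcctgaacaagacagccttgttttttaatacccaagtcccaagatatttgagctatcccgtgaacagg
Thrsp: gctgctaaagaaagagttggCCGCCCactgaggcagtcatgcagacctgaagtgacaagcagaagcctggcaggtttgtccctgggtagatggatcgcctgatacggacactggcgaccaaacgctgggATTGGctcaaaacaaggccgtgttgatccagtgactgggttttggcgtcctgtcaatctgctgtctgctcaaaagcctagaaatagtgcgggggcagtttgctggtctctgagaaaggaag

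The Pklr window held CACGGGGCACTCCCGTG, at 168 to 152 bases before the start, and GTTATACTTTAAC at 92 to 80 bases before it. Of 33469 promoter windows of that length in the table, 7 (0.0209%) held the carbohydrate response element pattern and 78 (0.233%) the HNF-1 palindrome. A CCAAT box lay 71 to 67 bases before the start of Acly and 72 to 68 before that of Acacb, and an inverted one 121 to 117 bases before that of Thrsp; 34.0% of windows held one. Acly had 3 GC boxes and Thrsp 1, a motif of 30.5% of windows, and the hexamer in Acacb occurred in 14.1%. The E-box CACGTG, held by 5.59% of windows, and the sterol regulatory element pattern TCACNCCAC, held by 0.974%, were not in these letters in any of the 6 windows. A match describes the sequence only and says nothing of whether a factor was bound.

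All 7 measured genes, against 50% of all probe sets, had lower mean levels in the congenic strain, by a median log2 difference of -0.93, against 0.000197 over all 8797 probe sets. No member passed (limma, Benjamini-Hochberg adjustment over all probe sets, adjusted p of 0.231 to 0.851, threshold 0.05), where 0.932% of probe sets passed in either direction and 0.659% as lower; at a threshold of 0.1 none did either, against 2.73%. At an unadjusted p under 0.05 (limma) the count was 4 of 7, Acly, Acaca, Pklr and Acacb, against 7.92% of all probe sets in that direction. In 5 of 7 both congenic arrays lay below all PD arrays, against 17.1% of all probe sets. Nr1h3 was among the 5 by a gap of only 0.023, where array medians ran from 5.21 to 5.38. This count was not repeated with array medians set equal. The 7 differences were each smaller than the gene's own range over the PD arrays. Values are RMA levels on the log2 scale, and a difference is PD.SHR4 minus PD. Only the check of cell type markers uses linear levels and sets levels of different genes against each other.

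**Figure D1:**
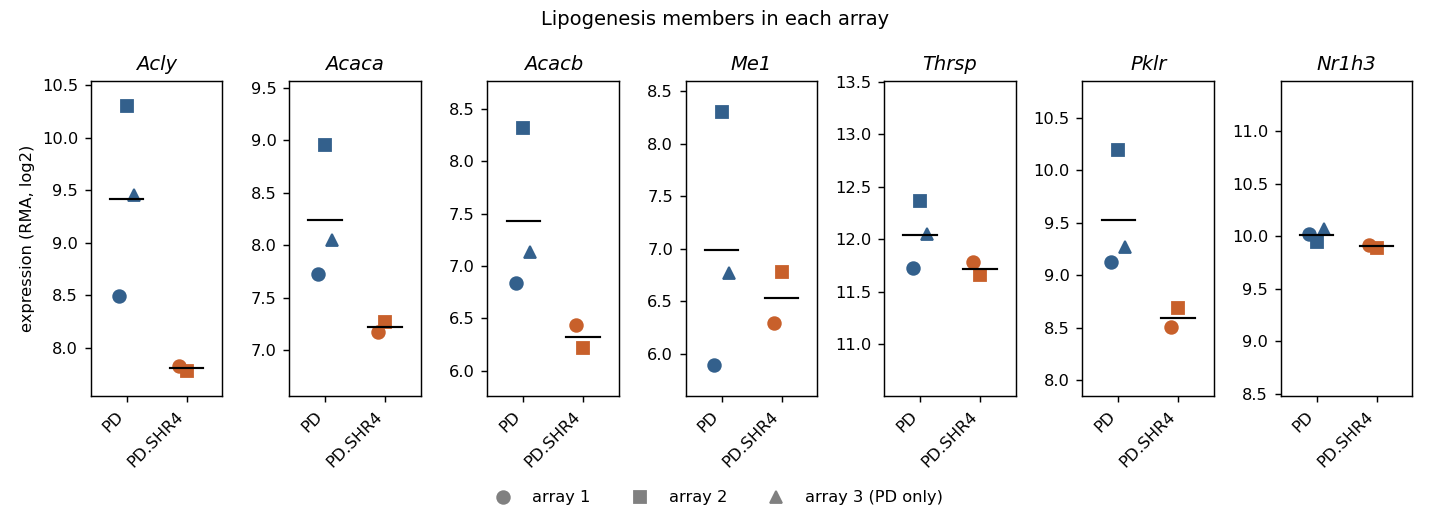
Expression of the 7 measured genes in each array (vertical axes, RMA log2 values, each spanning 3 log2 units; horizontal axis, strain); a point is an array, its shape the array number, and a bar the strain mean. The congenic arrays lie below all PD arrays for Acly, Acaca, Acacb, Pklr and, by 0.023, Nr1h3, while PD array 2 is the highest point for every gene but Nr1h3.

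Acetyl-CoA supply was represented by Acly, ATP citrate lyase, which splits citrate to cytosolic acetyl-CoA. The PD arrays read 8.49, 10.30 and 9.46, and the congenic arrays 7.82 and 7.78. The congenic arrays lay within 0.045 of each other and 0.67 below the lowest PD array. The log2 difference was -1.61 ± 0.50 (SE), a 3.06-fold lower level in PD.SHR4, with a 95% interval of -2.83 to -0.39 and an adjusted p of 0.231 (limma). It was the largest difference among the 7 genes, and the PD arrays themselves spanned 3.51-fold.

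Both acetyl-CoA carboxylases, which make malonyl-CoA, measured lower in every congenic array than in any PD array. Acaca encodes the cytosolic form that feeds synthesis. It measured 7.73, 8.96 and 8.05 in PD and 7.17 and 7.27 in PD.SHR4, which is 2.03-fold lower (log2 difference -1.02 ± 0.36 SE, limma adjusted p = 0.284). Acacb encodes the form at the outer mitochondrial membrane, whose malonyl-CoA restrains carnitine palmitoyltransferase. It measured 6.84, 8.31 and 7.13 in PD and 6.44 and 6.21 in PD.SHR4, which is 2.14-fold lower (log2 difference -1.10 ± 0.43 SE, limma adjusted p = 0.349). The gap between the strains' nearest arrays was 0.46 for Acaca and 0.39 for Acacb, about as wide in both genes.

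Me1, cytosolic malic enzyme, yields NADPH for synthesis, and its arrays overlapped between the strains. It measured 5.90, 8.30 and 6.77 in PD and 6.29 and 6.78 in PD.SHR4. The congenic arrays lay inside the PD range, which spanned 5.29-fold. Its log2 difference of -0.46 ± 0.67 (SE) had a 95% interval of -2.10 to 1.19 (adjusted p = 0.851, limma), so these arrays do not settle its direction. Without PD array 2 the difference was 0.20.

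Thrsp, or Spot 14, a nuclear and cytosolic protein that promotes lipogenesis in liver and responds to thyroid hormone and carbohydrate, overlapped as well. It measured 11.72, 12.36 and 12.05 in PD and 11.79 and 11.66 in PD.SHR4. PD array 1 was between the congenic arrays and the other two PD arrays were above both. The log2 difference was -0.32 ± 0.20 (SE), with a 95% interval of -0.82 to 0.18 (adjusted p = 0.585, limma). Without PD array 2 the difference was -0.17, and without PD array 1 it was -0.48.

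Pklr encodes the liver form of pyruvate kinase, the last step of glycolysis and a classical ChREBP target through the element shown in capitals in its promoter. Its levels were 9.12, 10.19 and 9.26 in PD and 8.50 and 8.68 in PD.SHR4. The higher congenic array was 0.44 below the lowest PD array. The log2 difference was -0.93 ± 0.33 (SE), 1.91-fold lower in PD.SHR4, with a 95% interval of -1.75 to -0.12 (adjusted p = 0.293, limma).

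Nr1h3, the LXR-alpha gene, was nearly level. It measured 10.02, 9.94 and 10.06 in PD and 9.92 and 9.89 in PD.SHR4. The arrays did not overlap, but the gap was 0.023 on the log2 scale. Its log2 difference was -0.10 ± 0.11 (SE; adjusted p = 0.787, limma), and the 95% interval of -0.38 to 0.17 leaves out a change of 2-fold in either direction. That of Acly lay below 0 before adjustment over all probe sets and spanned falls of very different size. Its adjusted p was 0.231 (limma). Both intervals rest on differences among arrays of pooled cDNA, so they do not measure the spread among rats.

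The PD arrays differed from each other in the same way for 6 of the 7 genes: array 2 was the highest and array 1 the lowest for Acly, Acaca, Acacb, Me1, Thrsp and Pklr. Over all probe sets, PD array 2 was the highest PD array in 48.2%, and the share with array 1 the lowest was not counted. The range over the PD arrays was 1.81 for Acly, wider than in 99.2% of probe sets, and 2.40 for Me1, wider than in 99.7%. It was 1.47 for Acacb, 1.23 for Acaca and 1.07 for Pklr, each wider than in at least 95.1% of probe sets. A range above 1, that is 2-fold, was reached by 5 of the 7 genes and by 6.09% of all probe sets. Thrsp, at 0.64, and Nr1h3, at 0.12, were wider than 81.8% and 11.02%. The 2 congenic arrays lay close together, with a median range over the 7 genes of 0.13, the same as over all probe sets, against 1.23 and 0.35 among the PD arrays. Per the labels the cDNA was pooled within each strain; the labels do not say which rats each PD array represents.

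**Figure D2:**
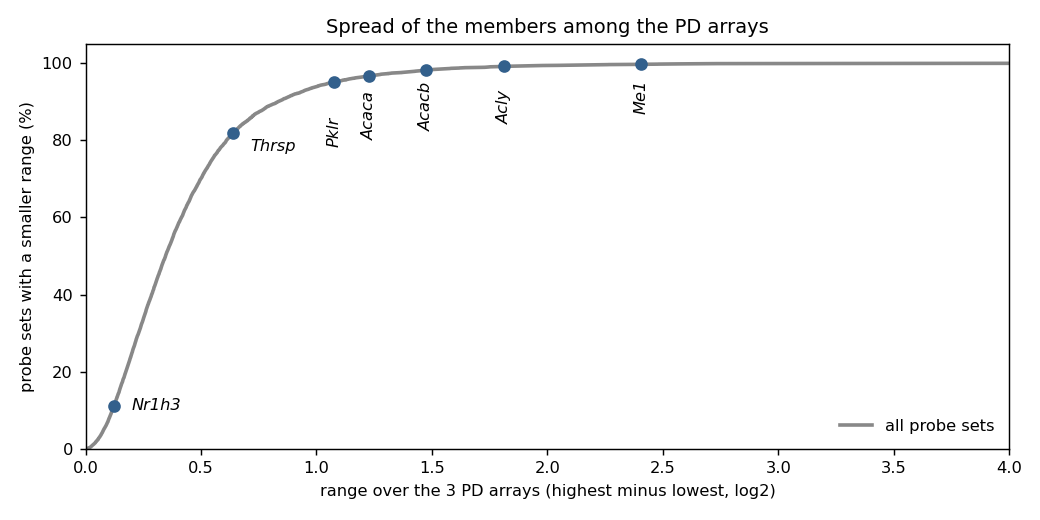
Range of each probe set over the 3 PD arrays (horizontal axis, highest minus lowest log2 value) against the share of all probe sets with a smaller range (vertical axis, percent); the grey line is all 8797 probe sets and the points are the 7 genes. Of the 7, 5 lie beyond a range of 1, with Me1 at 2.40 farthest, and Nr1h3 is at 0.12.

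Leaving out PD array 2 made the strain differences of Acly, Acaca, Acacb, Thrsp and Pklr smaller. Without it the differences were -1.17 for Acly, -0.67 for Acaca, -0.66 for Acacb and -0.60 for Pklr, and the median over the 7 genes was -0.60. The standard errors were smaller without it for all 4, among them 0.15 for Acaca and 0.13 for Pklr. The adjusted p was then 0.122 to 0.195 for these 4 genes (limma), and again none passed, against 0.625% of all probe sets. Without PD array 1 the difference of Acly was -2.08 ± 0.30 (SE; adjusted p = 0.0911, limma), the nearest any of the 7 came to the threshold when an array was left out. None of the 7 passed there, nor without PD array 3 or either congenic array, against 0.318%, 0.205% and 0% of all probe sets. The count at an unadjusted p under 0.05 (limma) was 5 of 7 when PD array 1 was left out (9.70% of all probe sets lower at that limit), 4 for PD array 2 (8.23%), 3 for PD array 3 (6.08%) and 0 for either congenic array (4.89% and 4.47%). With array weights, which gave PD array 3 a weight of 4.26 and PD array 2 one of 0.304, Acly (adjusted p = 0.0222, limma) and Acaca (adjusted p = 0.0494) passed, and so did 819 of all probe sets.

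**Figure D3:**
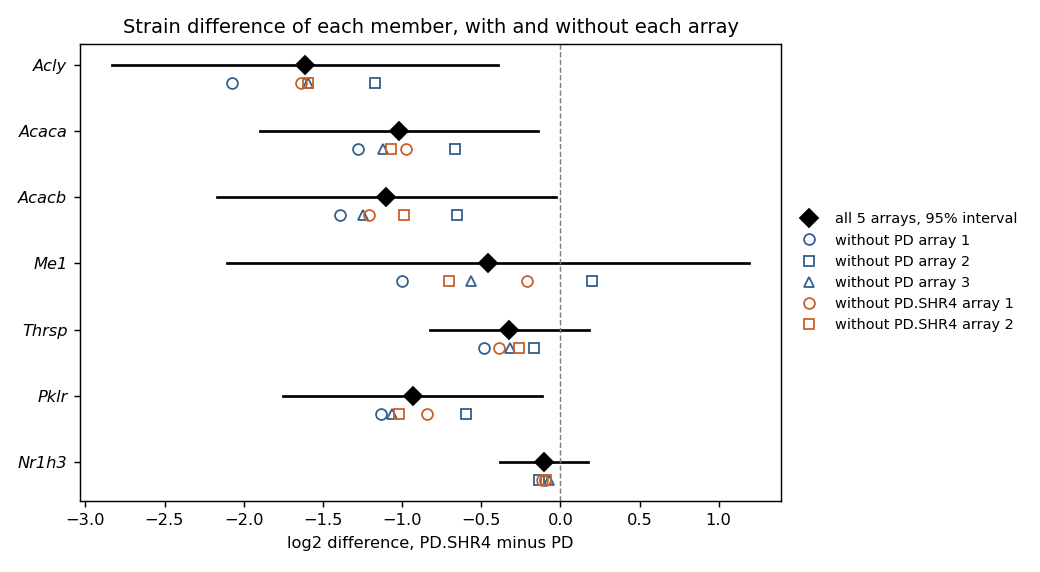
Strain difference of each gene (horizontal axis, log2, PD.SHR4 minus PD); the black diamond and line are the estimate and 95% interval from all 5 arrays, and the open symbols the estimate without each array in turn. The interval lies below 0 for Acly, Acaca, Acacb and Pklr before adjustment over all probe sets, and leaving out PD array 2 moves the estimates of these 4 genes toward 0 and that of Me1 to 0.20.

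Around these genes, 47 of 70 listed genes of 5 related groups were measured. Of these, 1 was called lower (0.659% of all probe sets), 1 higher (0.273%) and 45 neither (limma, adjusted p under 0.05). The group of SREBP-1c control genes and shared lipogenic targets was lowest by its median. Its 9 measured genes, of 14, all lay below 0, against 50% of all probe sets, at a median of -1.10 on the log2 scale. In 6 of the 9 both congenic arrays lay below all PD arrays, against 17.1% of all probe sets. Elovl6, Fads2 and Mid1ip1 overlapped between the strains, and 1 gene of the group fell past the test. That gene was Insig1, which holds SREBP in the endoplasmic reticulum: 11.28, 11.95 and 11.63 in PD against 8.87 and 8.38 in PD.SHR4, or -2.99 ± 0.25 (SE, limma adjusted p = 0.0149). Insig1 lies on chromosome 4 in GRCr8, the chromosome of the SHR segment, unlike the 7 members and the other genes of its group; the sources used here do not say where the segment ends, and the effect of its sequence on this probe set was not tested. It did not pass without PD array 3 (adjusted p = 0.0549) or either congenic array (adjusted p = 0.103 and 0.166). The stearoyl-CoA desaturase Scd, which makes monounsaturated from saturated fatty acids, measured 9.24, 11.51 and 10.38 against 6.58 and 5.47 (log2 difference -4.35 ± 0.68 SE; adjusted p = 0.0606, limma). Scd passed in 5 of 12 alternative fits, among them the replicate block (adjusted p = 0.00617, limma) and array medians set equal (0.0494). The block gave the same difference as leaving out PD array 3, -4.35, and there Scd did not pass (adjusted p = 0.176, limma). Insig2 measured -1.06 ± 0.20 (SE; adjusted p = 0.0855). PD array 2 was the highest PD array for all 9. One of them, the fatty acid elongase Elovl6, is named after its values were seen: it measured 3.66, 7.10 and 5.03 in PD and 4.24 and 4.06 in PD.SHR4.

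Genes that supply NADPH and acetyl-CoA measured slightly lower, with 9 of 10 values below 0, a median log2 difference of -0.21 and no gene past the test. The citrate carrier of the plasma membrane, Slc13a5, measured -1.03 ± 0.31 (SE; adjusted p = 0.229, limma). Taldo1, transaldolase of the pentose phosphate route, measured -0.53 ± 0.18 and Pc, pyruvate carboxylase, which refills oxaloacetate for citrate export, 0.36 ± 0.12 (adjusted p = 0.270 for both, limma). For Slc13a5 PD array 2 was the lowest PD array, at 6.94 against 7.88 and 7.60, and for the other 9 genes of the group it was the highest.

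Sugar-responsive genes under ChREBP went both ways, with 4 of 7 values below 0, a median of -0.14 and none past the test. G6pc1, the catalytic subunit of glucose-6-phosphatase, measured -1.17 ± 0.31 (SE; adjusted p = 0.174, limma). Slc2a2, the hepatic glucose transporter GLUT2, measured 0.64 ± 0.19 (adjusted p = 0.227), and Txnip, a thioredoxin inhibitor induced by glucose, 0.30 ± 0.12 (adjusted p = 0.352). So these 2 measured higher where Pklr measured lower.

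Partners and targets of LXR had 8 of 12 values above 0 and a median of 0.22, and 1 rose and none fell. The rise was in Abcg5, which with Abcg8 moves sterols into bile: 5.47, 5.93 and 5.57 in PD against 8.12 and 8.31 in PD.SHR4, or 2.56 ± 0.17 (SE, limma adjusted p = 0.00755). It did not pass without either congenic array (adjusted p = 0.103 and 0.154). Abcg8 measured 0.96 ± 0.14 (SE; adjusted p = 0.0514, limma), and it passed in 6 of 12 alternative fits, with adjusted p of 0.0113 with array weights to 0.0494 with array medians set equal. Rxrg, a retinoid X receptor gene whose protein pairs with LXR, measured -0.76 ± 0.17 (adjusted p = 0.132).

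The subunits of AMPK, the kinase that phosphorylates and inhibits acetyl-CoA carboxylase, and genes of malonyl-CoA disposal had a median of -0.018 over 9 genes, with 5 values below 0 and none past the test; the median was 0.036 with array medians set equal and 0.0077 with quantiles normalised again. Cpt1a, the carnitine palmitoyltransferase that malonyl-CoA inhibits, measured 9.31, 8.37 and 8.63 in PD and 10.10 and 10.18 in PD.SHR4. Its log2 difference was 1.37 ± 0.28 (SE; adjusted p = 0.103, limma), opposite in sign to those of Acaca and Acacb, and PD array 2 was its lowest array. Without PD array 1 it passed (1.64 ± 0.15 SE; adjusted p = 0.0413, limma). The AMPK catalytic subunit Prkaa2 measured 0.55 ± 0.13 (SE; adjusted p = 0.156) and the regulatory subunit Prkab1 -0.49 ± 0.19 (adjusted p = 0.332). The value of Prkab1 was -0.75 without PD.SHR4 array 1 and -0.23 without PD.SHR4 array 2.

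**Figure D4:**
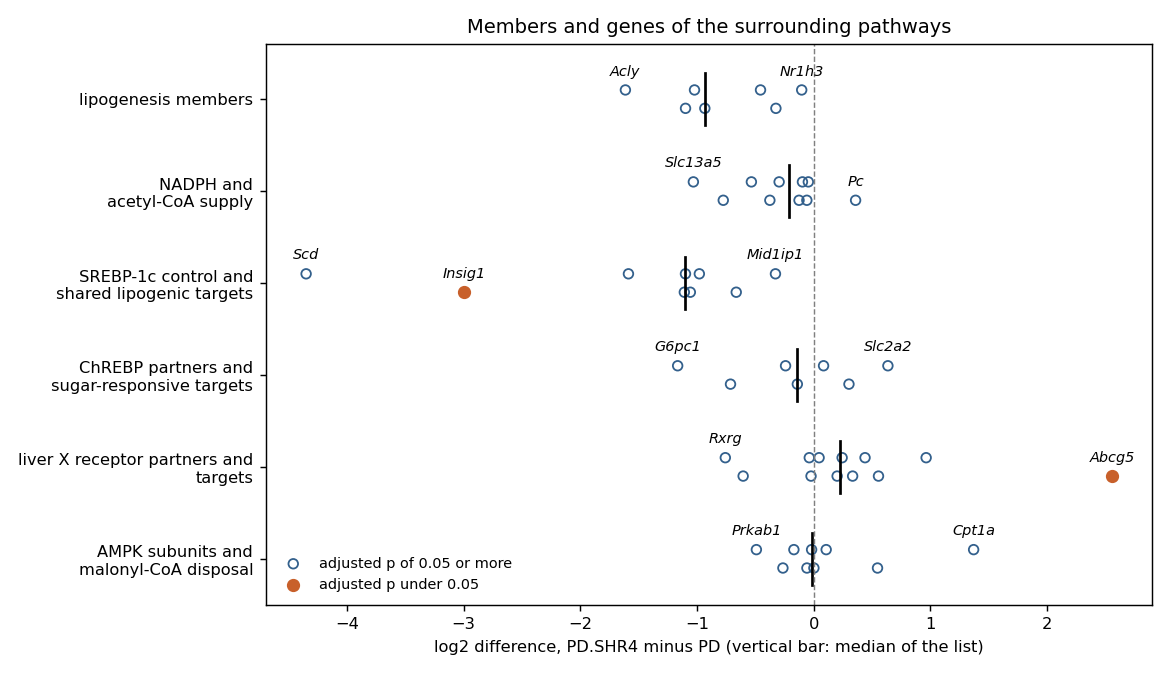
Strain differences of the 7 genes and of the measured genes of 5 related groups (horizontal axis, log2, PD.SHR4 minus PD; vertical axis, group); a point is a gene, filled where the adjusted p was under 0.05, a vertical bar is the group's median, and the lowest, the highest and the filled genes are named. The filled points are Insig1 at -2.99 and Abcg5 at 2.56, and every gene of the SREBP-1c group lies below 0.

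The genes whose 5 array values most resembled those of Acly, each gene centred on its own mean, were Acat2, Fads1, Dhcr7, Pclaf and Cyp51, among 7582 genes. Their root mean square differences from Acly were 0.189, 0.207, 0.244, 0.263 and 0.277, against a median of 0.975 over those genes. Acly stood in for Fasn here, a choice made after Fasn was found not to be measured. Acat2, the cytosolic acetoacetyl-CoA thiolase, measured 7.92, 10.02 and 8.96 in PD and 7.80 and 7.39 in PD.SHR4. Dhcr7 and Cyp51 encode enzymes of cholesterol synthesis, Fads1 the delta-5 desaturase and Pclaf a protein that binds the replication clamp. Among the other measured members, Acacb (0.335) and Acaca (0.370) were nearer to Acly than Pklr (0.445), Me1 (0.637), Thrsp (0.734) and Nr1h3 (0.951). With all arrays and neither weights nor a block, these 5 genes did not pass (adjusted p of 0.0997 for Dhcr7 to 0.385 for Acat2, limma). With the replicate block Fads1 (adjusted p = 0.0179), Dhcr7 (0.0259) and Cyp51 (0.0308) passed (limma). Their differences were the same without PD array 3, where they did not pass (0.325, 0.252 and 0.266). With array weights Fads1, Dhcr7, Cyp51 and Pclaf passed (0.0094 to 0.0366). The matching to Acly used the congenic arrays too, so lower levels there were part of the choice of genes and are not separate evidence. Cyp51 is on chromosome 4 too.

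As a check of the labels, the single probe set annotated to both Cd36 and Cd36l1 measured 7.35, 7.83 and 7.93 in PD and 4.18 and 4.85 in PD.SHR4. Array medians ran from 5.21 to 5.38, and arrays correlated over all probe sets at r = 0.988 to 0.994 within a strain and 0.986 to 0.987 between strains. Over all probe sets 58 fell and 24 rose (59 and 41 with array medians set equal, 65 and 47 with quantiles normalised again). In tissue, fewer cells of a type and less RNA per cell cannot be told apart. Hepatocyte markers summed to 50280 to 52370 linear RMA units in PD and 51069 to 51321 in PD.SHR4 (9 of 10 measured, none past the test). Single hepatocyte markers had log2 differences from -0.61 for Tat to 0.12 for Hnf4a. Adipocyte markers, which matter because fat also makes these enzymes, summed to 692 to 817 and 748 to 830 (7 of 8 measured, none past the test). Cidec alone made up 83.4% to 85.5% of that sum; without it the sums were 100.1 to 121.7 in PD and 124.2 to 127.6 in PD.SHR4, with single markers from -0.45 for Retn to 0.39 for Lipe. Adipoq, at 1.93 to 2.66 on the log2 scale, was below the lower quartile of every array. Macrophage markers summed to 1875 to 2149 in PD and 1647 to 1738 in PD.SHR4 (3 of 7 measured, none past the test). Clec4f made up 71.9% to 83.8% of it, at a log2 difference of -0.08. The other 2 were lower in both congenic arrays than in any PD array (log2 scale), as were 17.1% of all probe sets. Adgre1 measured -0.71 ± 0.16 (SE, limma adjusted p = 0.124) and Tyrobp -0.80 ± 0.12 (SE, limma adjusted p = 0.0572). These 2 summed to 459.5 to 538.0 in PD and 282.3 to 312.7 in PD.SHR4. The lymphocyte genes summed to 62.9 to 77.4 and 42.4 to 45.6 (2 of 5 measured, none past the test); the part of these marker levels in the strain differences was not tested. No endothelial marker of the 5 listed was measured. Stellate cell and fibroblast markers had log2 differences from -0.75 for Lrat to 0.44 for Rgs5. Cholangiocyte markers ran from -0.23 for Epcam to 0.50 for Krt19, and pancreas and muscle markers from -0.20 for Cpa1 to 0.28 for Acta1. The erythroid marker Slc4a1 measured -0.22. None of these passed the test, and their part in the strain differences was not tested either.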

How the data were processed

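The deposited values are log2 expression levels of 8797 probe sets on 5 arrays. Per the labels, the authors made them by RMA (Affymetrix Expression Console, core genes); RMA and Partek stand in the submitters' processing notes, and versions and build were not given in the sources used here. RMA subtracts background by a model, equalises array distributions by quantiles and summarises a gene's probes robustly. There are no detection calls, and precision is limited by how few arrays there are. Of the probe sets, 7603 had 1 symbol in GEO's platform annotation, 409 several and 785 none; 7584 gene IDs matched RefSeq (GRCr8). The brightest probe set stood for a gene with several (14 genes). The strain comparison used R 4.3.3 and limma 3.58.1 (lmFit, eBayes, two-sided, all 5 arrays, no covariate), adjusted over all probe sets, and the fit was tested on simulated data. The text names all measured members, up to 3 genes per related group by smallest p, any group gene past the test, and the 5 genes nearest to Fasn in pattern (Acly replaced Fasn). Members and lists were chosen with earlier results of these data known. As alternatives, each array was left out in turn, replicate numbers were blocked, variances were not shrunk or were shrunk robustly with an intensity trend, the dimmest 25% of probe sets were dropped, arrays were quantile normalised again, median centred or weighted, and the threshold was set at 0.1.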

Additional observations from a re-analysis of the deposited data

How the results depend on the processing

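Over 12 alternative fits of the 7 genes, 81 of 84 differences kept their direction and stayed short of the threshold. Me1 was -1.002 to 0.20 with an array left out, above 0 only without PD array 2, which held its highest value, and with array weights 2 members passed, Acly and Acaca; in every other setting, a threshold of 0.1 included, 0 passed. Leaving out an array gave a median of -1.14 to -0.60 over the members, 0 to 55 changed probe sets and 0 to 3 changed genes of the related groups, against 82 and 2 with all arrays. The counts of probe sets and related genes were 2 and 0 without variance shrinkage, 151 and 4 with the intensity trend, 149 and 4 without the dimmest probe sets, 819 and 17 with array weights, 240 and 5 at a threshold of 0.1, and 4 related genes passed after median centring; the causes were not tested. The number of members at an unadjusted p under 0.05 (limma) was 4 with all arrays, against 13.8% of all probe sets in either direction. Without a PD array it was 3 to 5 (10.5% to 17.4%), and without variance shrinkage 0 (12.5%). It was 5 with array weights (28%) and 4 in the other settings that kept all arrays (11.9% to 17%). With the replicate number as a block, 163 probe sets, 7 related genes and 0 members passed; deviations of same-numbered arrays correlated at 0.050 and 0.082 over probe sets, only 2 numbers are shared, and nothing in the labels pairs them. Number 3 is held by PD alone, so PD array 3 does not enter the blocked differences. With 1 congenic array left, that array was assumed to vary like PD.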
